A study of Drosophila melanogaster with 3 samples.

Results

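The 8 Sox genes of Drosophila melanogaster annotated under the symbols D (Dichaete), SoxN, Sox14, Sox15, Sox21a, Sox21b, Sox100B and Sox102F were examined for peaks of Mabi (CG15479), a protein with a known part in early embryonic cell death. All 8 symbols matched 1 gene each among 13968 protein-coding genes. A peak was taken to belong to a gene when its summit, the base of highest signal that the authors recorded, lay inside the gene model or within 10 kb of it. By that rule the genes held 14 of the 5049 peaks in the optimal list that the authors made with IDR (the irreproducible discovery rate, which rates how well peak ranks agree between replicates). They held 116 of 30000 peaks in the pooled list, and 129, 104 and 118 of 30000 in replicates 1, 2 and 3. Chromatin was immunoprecipitated with an anti-GFP antibody from whole embryos of both sexes aged 0 to 4 h, from a transgenic line that stably expressed Mabi with GFP (green fluorescent protein) at its C-terminus. The 3 biological replicates formed a single group with nothing to set it against, so the values are described without a test. The embryos were all of 1 line, and the labels do not say which promoter drives the fusion or how many copies it adds. Values are averages over all cells of embryos that span several stages, so strong occupancy in few cells and weak occupancy in many cannot be told apart. Signal values are the authors' own and their scale is not stated, so they are compared within a list only, as a rank or as a multiple of that list's median. Read depth is unknown here.

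The genes lie on 5 chromosome arms (dm6, Ensembl release 115 models). SoxN occupies 2L from 8825645 to 8829670 on the plus strand. Sox21a (14103481 to 14108118), Sox21b (14112405 to 14131324) and D (14175610 to 14178620) follow each other on the minus strand of 3L, in a stretch of 75140 bp with no other protein-coding gene. Sox14 (23978801 to 23985177, plus strand) and Sox15 (14201390 to 14212413, minus strand) lie on 2R. Sox100B occupies 3R from 31065253 to 31083407 on the plus strand, and Sox102F occupies chromosome 4 from 800436 to 834393 on the minus strand.

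Sox proteins are transcription factors that bind and bend DNA in its minor groove through an HMG box, recognising sites with an ACAAT-type core. D, SoxN, Sox21a and Sox21b form the SoxB group. D and SoxN act with partly overlapping roles in the early neuroectoderm and central nervous system, and D also takes part in segmentation of the blastoderm embryo. Sox14 belongs to group C and is known as an ecdysone-responsive gene needed for neuronal remodelling at metamorphosis. Sox102F, Sox100B and Sox15 represent groups D, E and F. Sox100B is known for its part in gonad and gut development, Sox21a for its part in adult intestinal stem cells, and Sox15 for its part in the development of mechanosensory bristles and the wing hinge.

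The sequences under 5 of the 14 IDR summits are shown so that the letters behind the motif counts can be read, and were chosen to cover the SoxN promoter, the distal SoxN peak, both Sox21a sites and the D peak. Each is a window of 201 bases from the RefSeq copy of genome Release 6 (dm6) with the summit at base 101, given 5′ to 3′ on the strand of the gene. Capitals mark the letters of 3 known types of site on either strand. These were ACAAT (or its complement ATTGT), the core of Sox sites, then GAGAG (or CTCTC), the core of GAGA-type sites, and CAGGTA (or TACCTG), the core of sites of the early activator Zelda. None of the windows overlaps an annotated UTR.
SoxN promoter, chr2L:8825411-8825611, plus strand: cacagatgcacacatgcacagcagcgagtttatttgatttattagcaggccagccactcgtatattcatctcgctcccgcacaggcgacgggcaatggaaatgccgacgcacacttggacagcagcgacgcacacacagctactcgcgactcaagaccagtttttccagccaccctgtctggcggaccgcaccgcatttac
SoxN distal peak, chr2L:8839258-8839458, plus strand: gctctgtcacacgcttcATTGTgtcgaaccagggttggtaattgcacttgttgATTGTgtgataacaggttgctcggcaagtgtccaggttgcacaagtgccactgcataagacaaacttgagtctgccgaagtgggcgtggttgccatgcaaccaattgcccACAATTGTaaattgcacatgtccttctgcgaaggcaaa
Sox21a promoter, chr3L:14108207-14108407, minus strand: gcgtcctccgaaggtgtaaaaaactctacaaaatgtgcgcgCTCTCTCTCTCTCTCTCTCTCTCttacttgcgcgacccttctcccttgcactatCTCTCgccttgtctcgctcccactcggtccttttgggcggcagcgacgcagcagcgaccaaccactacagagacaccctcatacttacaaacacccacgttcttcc
Sox21a intron, chr3L:14105080-14105280, minus strand: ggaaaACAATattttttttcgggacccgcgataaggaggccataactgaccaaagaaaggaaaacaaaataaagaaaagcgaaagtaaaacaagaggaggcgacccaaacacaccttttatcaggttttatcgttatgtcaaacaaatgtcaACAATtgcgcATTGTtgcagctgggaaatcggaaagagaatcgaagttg
D downstream peak, chr3L:14173385-14173585, minus strand: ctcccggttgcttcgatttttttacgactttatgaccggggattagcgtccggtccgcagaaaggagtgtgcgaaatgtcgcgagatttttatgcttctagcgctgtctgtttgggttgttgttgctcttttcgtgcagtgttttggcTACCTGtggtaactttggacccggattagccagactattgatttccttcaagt
The SoxN promoter window held none of these letters. The distal SoxN window held ACAAT at 4 positions counted over both strands, and the Sox21a intron window at 3. The Sox21a promoter window carried a long CT repeat and a further CTCTC. The D window held 1 CAGGTA, read as TACCTG, and no ACAAT. The 5 windows shown include those with the most ACAAT and GAGAG and the sole window with CAGGTA. They therefore do not stand for all 14. Over all 14 windows ACAAT was present in 7, against 44.8% of all IDR windows. GAGAG was in 2 against 35.3%, and CAGGTA in 1 against 13.2%.

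Of the 8 Sox genes, 6 had an IDR summit in or within 10 kb of the gene model, against 53.9% of all protein-coding genes. The number per gene was 6 at SoxN, 3 each at Sox14, Sox21a and Sox21b, 1 each at D and Sox102F, and 0 at Sox15 and Sox100B. The 3 summits counted for Sox21b were the same as those of Sox21a, its neighbour 4286 bp away, and each lay closer to the Sox21a transcription start site (TSS). Counted once, the 14 summits lay in 10 separate stretches. A window widens with gene length, so these counts favour long genes, and the median gene model was 2164.5 bp long among protein-coding genes, while the Sox models ran from 3011 bp for D to 33958 bp for Sox102F. All 8 Sox models were longer than the median model, and the shares given here are not matched for length. The longest, Sox102F, held 1 summit, and the 6 of SoxN came from a model of 4026 bp. Whether length accounts for the counts was not tested. In all, 4 Sox genes had 3 or more summits, against 19.1% of protein-coding genes. An IDR summit lay inside the model of 4 Sox genes, SoxN, Sox14, Sox21a and Sox102F, against 13.1% of protein-coding genes.

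**Figure D1:**
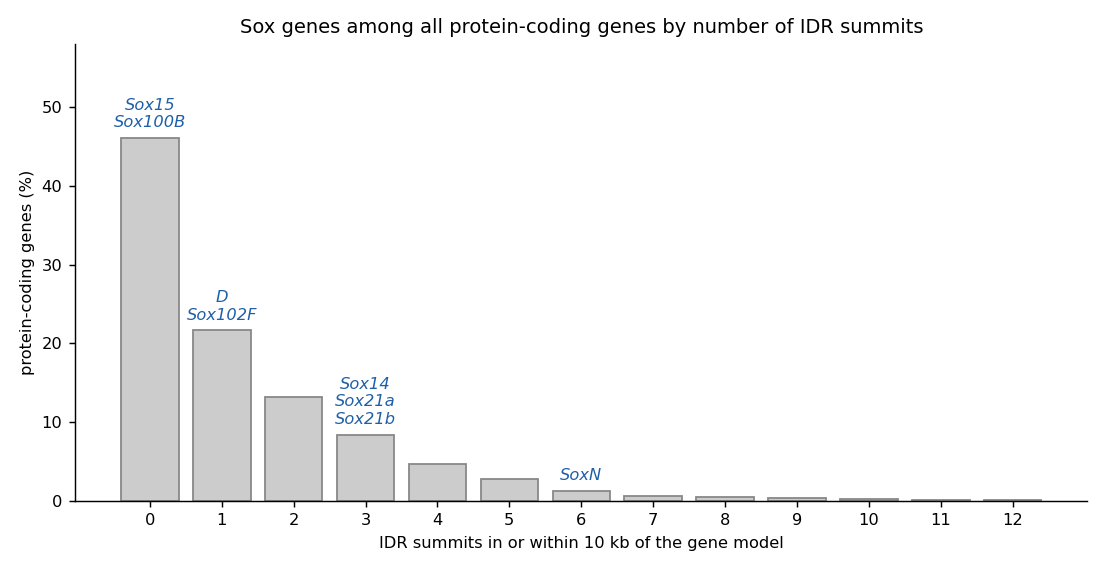
Share of all 13968 protein-coding genes (bars, in percent) by the number of IDR summits in or within 10 kb of the gene model, with the Sox genes named above the bar of their count; counts above 12 are not drawn. SoxN stands at 6 summits, a number reached or passed by 3.22% of genes, and Sox15 and Sox100B stand with the 46.1% of genes that had none.

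Those 4 genes were also the ones with a promoter peak, counted when an IDR summit came to within 1000 bp of an annotated TSS of the gene, against 18.4% of protein-coding genes. At SoxN and Sox102F the sole summit inside the model was itself within 1000 bp of a TSS, so the counts share peaks there. The strongest promoter peak was at Sox14, where the summit lay 260 bp upstream of the first of 3 TSSs (2R, peak 23978114 to 23979108). Its signal of 3644 ranked 11 of 5049 and was 7.70 times the IDR list's median. In the separate replicate lists the Sox14 promoter peak ranked 22, 6 and 14 of 30000 in replicates 1, 2 and 3. These peaks stood at 20.02, 24.9 and 25.9 times the median of their lists. All 3 replicates thus placed it among their 22 strongest peaks.

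SoxN had the second strongest promoter peak, with its summit 134 bp upstream of its single TSS (2L, 8825064 to 8826012). Its signal of 2460.1 ranked 56 of 5049. It ranked 139, 55 and 46 in replicates 1, 2 and 3, at 11.4, 16.0 and 19.6 times the median. The Sox21a promoter peak, 189 bp upstream of the TSS (3L, 14108133 to 14108517), had a signal of 862 and ranked 868. It ranked 1751, 653 and 1187 in the replicates, at 3.83, 6.49 and 5.72 times the median. The Sox102F summit lay 94 bp downstream of the TSS furthest upstream (4, 834051 to 834546), and had a signal of 437, below the IDR median of 473. Its replicate ranks of 5369, 3359 and 2488 make it the only one of the 14 summits without a match among the 5049 strongest peaks of every replicate, since replicate 1 placed it lower. The multiples for Sox102F were 1.92, 2.61 and 3.72. The replicate values of Sox14 did not overlap those of any other Sox promoter, while those of Sox102F overlapped the range of the strongest peak at the D promoter in each replicate.

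**Figure D2:**
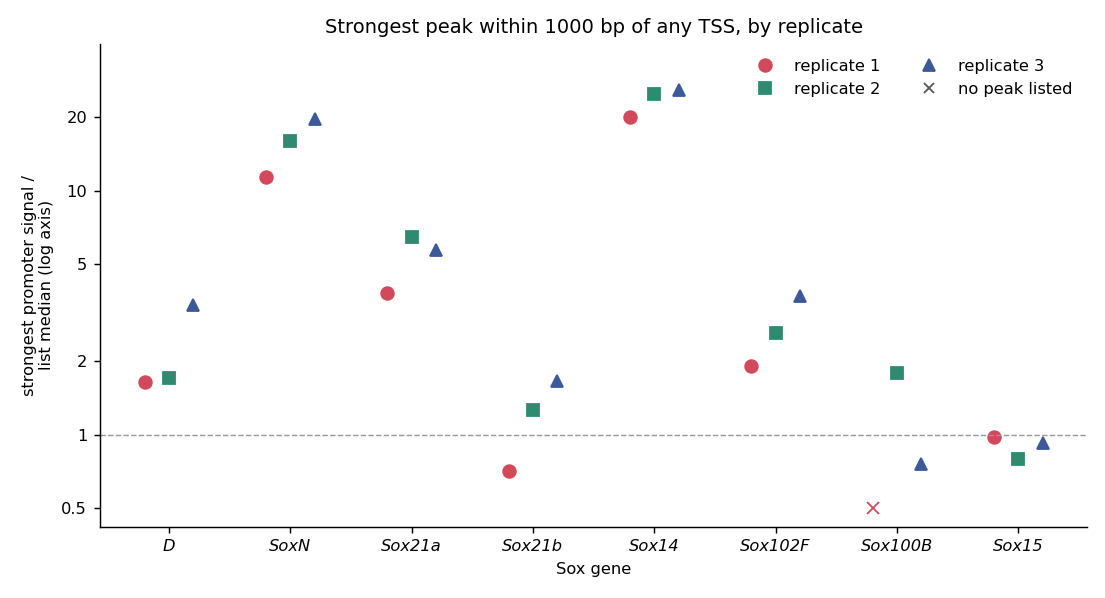
Signal of the strongest peak within 1000 bp of any TSS of each Sox gene in each of the 3 replicate lists, as a multiple of that list's median on a log axis, with the dashed line at the median and a cross where no peak was listed. Sox14 and SoxN lie above 10 times the median in all 3 replicates, and Sox15 lies below the median in all 3.

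The other 4 genes had no promoter peak in the IDR list, yet each had a weaker one in the pooled list. With pooled peaks of any strength counted, those of the IDR list included, all 8 Sox genes had one. The same held for 56.6% of protein-coding genes, a share that is not limited to genes without an IDR promoter peak. At D the strongest lay 492 bp upstream of the downstream TSS, inside the gene model (3L, 14177781 to 14178276). It ranked 5581 of 30000 in the pooled list, close below the 5049 that make up the IDR list, with a signal of 271 where the weakest IDR peak had 291. The replicate peaks matched to it ranked 17921, 18001 and 2848, at 0.89, 0.90 and 3.42 times the median in replicates 1, 2 and 3, so that replicate 3 alone placed it among the 5049 strongest. The strongest D promoter peaks of replicates 1 and 2 were at other summits, 87 and 223 bp upstream of the same TSS, and ranked 6745 and 6383, at 1.65 and 1.71 times the median. At Sox21b the pooled promoter peak ranked 8500, and the replicate multiples were 0.71, 1.27 and 1.66, on both sides of the median. At Sox100B it ranked 8752, with 1.79 and 0.76 times the median in replicates 2 and 3 and no listed peak in replicate 1. At Sox15 it ranked 20520, and the multiples of 0.98, 0.80 and 0.93 all lay below the median. Its pooled signal was 105, where the weakest pooled peak had 79.6 and the pooled median was 131.

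SoxN had 4 IDR summits away from its promoter, all downstream of the gene and all nearest to the SoxN TSS. They fell into 3 intervals, 1262 to 9688 bp beyond its 3′ end. The interval at 8832241 to 8833382 held a pair of summits with signals of 1143 (rank 488) and 953 (rank 728). The stronger of that pair matched peaks at 6.67, 6.12 and 11.6 times the median in replicates 1, 2 and 3, and the other at 4.27, 6.12 and 8.44, where replicate 2 had a single summit for both. The furthest interval, at 8838951 to 8839673, had a signal of 807 and multiples of 6.23, 4.39 and 5.64. The weakest, at 8830765 to 8831159, had a signal of 486, and its multiples were 2.87, 4.01 and 3.05. No other protein-coding gene model reached into the SoxN window.

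The limit of 10 kb cut through a longer run of peaks at SoxN. The furthest summit inside it lay 9688 bp from the gene, with a signal of 807, and the nearest outside lay 12020 bp away with a signal of 2881 (2L, 8841247 to 8842597), rank 34, which is above the SoxN promoter. In all, 7 IDR summits lay between 10 and 20 kb of SoxN, of which 4 had the SoxN TSS as their nearest and 3 that of CG32986. At Sox15 the nearest summit outside lay 10126 bp upstream, in an intron of CG8468, with a signal of 418. At Sox102F it lay 11923 bp upstream, at 708, nearest to the start of the forkhead gene fd102C. At D it lay 12811 bp upstream, at 929, nearest to nuf. Sox14 and Sox21a had none within 20 kb beyond those already counted, and the nearest to Sox100B was 109716 bp away.

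The SoxB genes on 3L carried their strongest IDR summits around Sox21a and in the gap between Sox21b and D. In the Sox21a intron a pair of overlapping intervals that start at 14104968 held summits with signals of 1010 (rank 645) and 407 (rank 3171), 2938 and 2732 bp downstream of the TSS. The stronger of these had 6.55, 5.88 and 7.76 times the median in replicates 1, 2 and 3. The weaker had 4.45, 2.46 and 2.64. The gap of 44285 bp between Sox21b and D held 3 IDR summits. The strongest, at 14150003 to 14150673, lay 19026 bp upstream of Sox21b and 25260 bp beyond the 3′ end of D, outside the 10 kb windows of both. Its signal of 1909.9 ranked 129, and each of the 3 replicates had a match for it among its 5049 strongest peaks. The second, 22595 bp from Sox21b, had a signal of 383 and was matched in 2. The third was the D peak at 14173401 to 14173598, 2125 bp beyond the 3′ end of D, with a signal of 563 (rank 1913). That D peak had 4.21, 3.92 and 3.56 times the median in the replicates, the narrowest range among the 14 summits. No IDR summit lay inside the models of D or Sox21b.

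**Figure D3:**
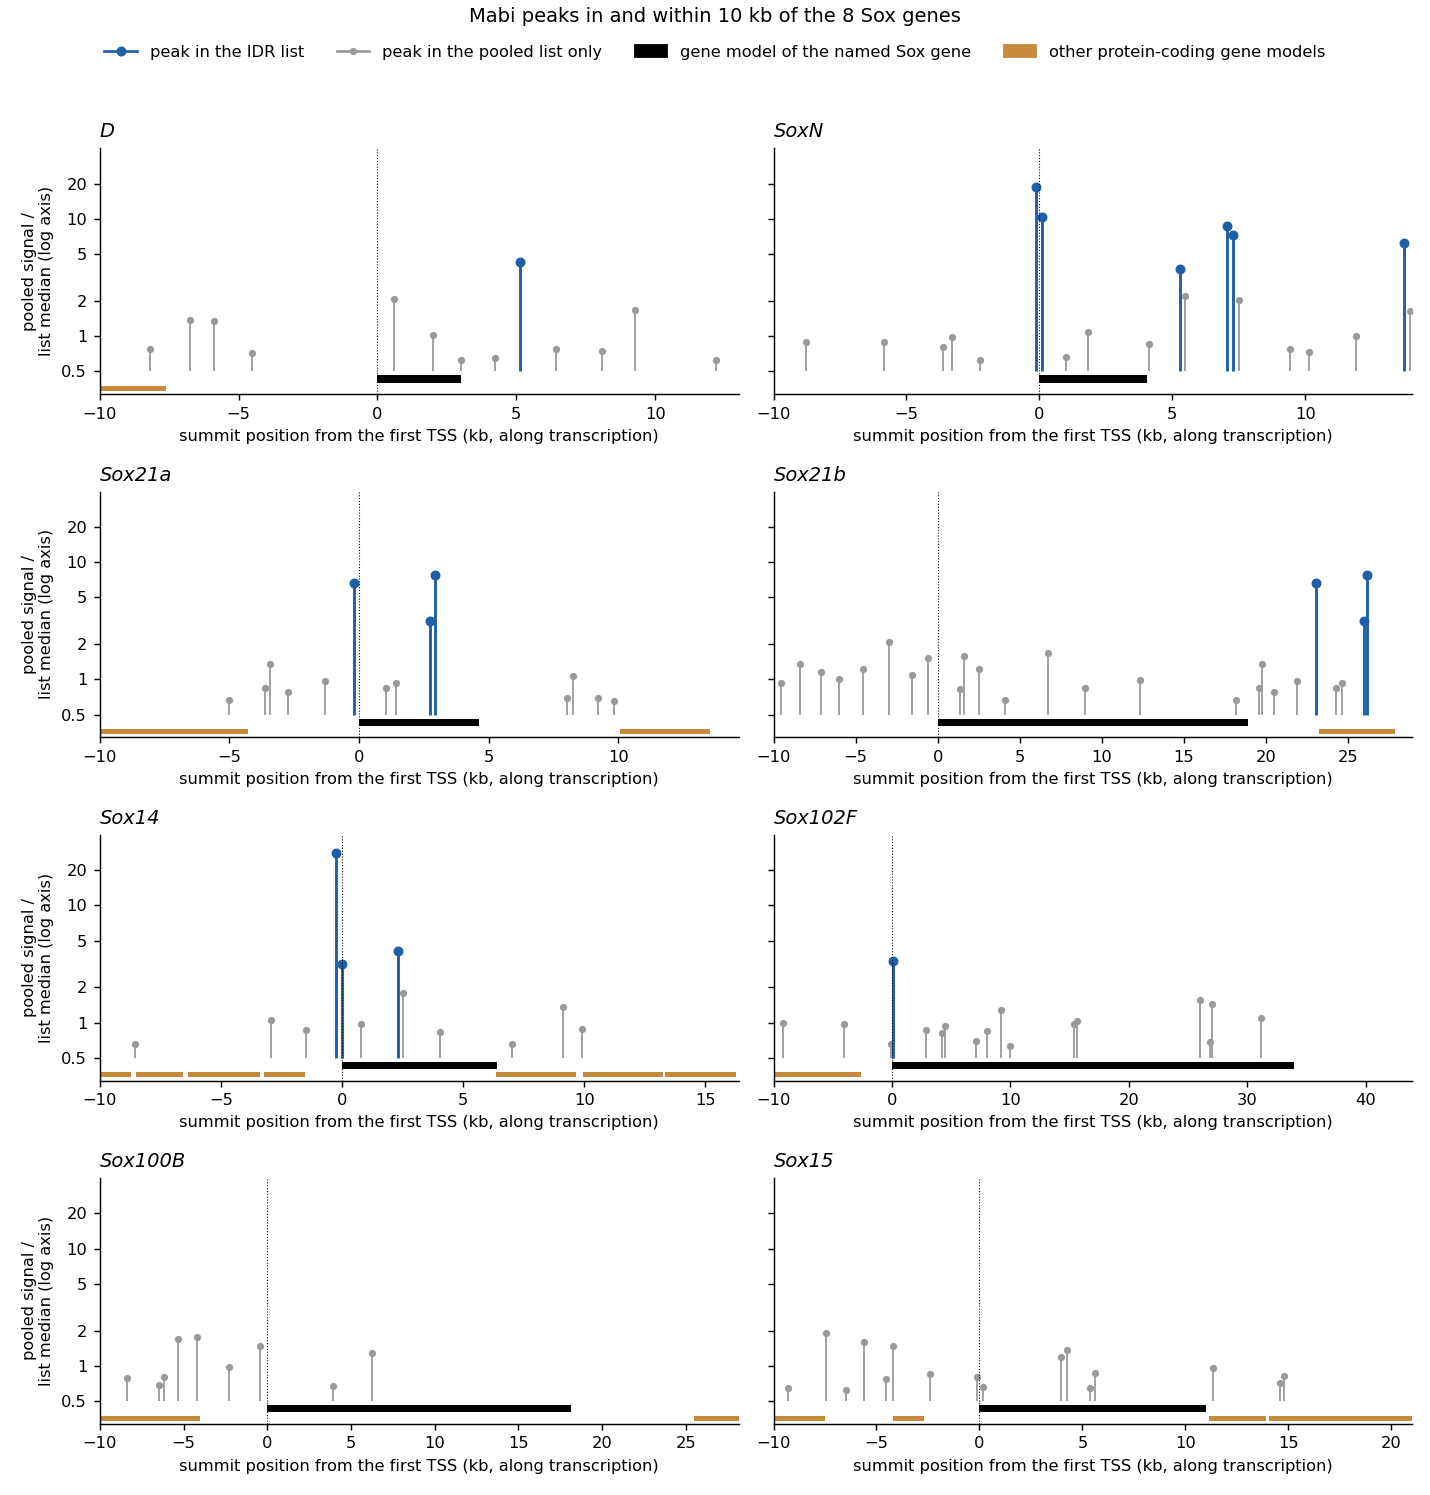
Each panel shows the pooled peaks in and within 10 kb of 1 Sox gene, by the distance of the summit from the first TSS in kb along the direction of transcription (x axis) and by signal as a multiple of the pooled median on a log axis (y axis). Blue peaks are in the IDR list and grey peaks in the pooled list only. Black bars are the named gene and brown bars other protein-coding genes. The blue peaks of Sox14, SoxN, Sox21a and Sox102F include their promoters, while those drawn for Sox21b lie in Sox21a or 189 bp upstream of it.

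The third Sox14 summit lay in an intron, 1215 bp from the nearest Sox14 TSS (2R, 23980988 to 23981200), with a signal of 536 and multiples of 2.98, 3.15 and 4.02. The promoter interval of Sox14 also held a weaker summit 13 bp upstream of the first TSS, with a signal of 410 and multiples of 4.86, 3.67 and 14.2, highest in replicate 3. Pairs of summits in the same or overlapping intervals occurred 4 times at Sox genes, at SoxN, Sox14 and Sox21a, with a spacing of 206 to 247 bp. Among all 907 pairs of neighbouring IDR summits with overlapping intervals the smallest spacing was 199 bp and the median 204 bp. The quartiles were 201 and 215 bp, so a spacing near 200 bp was the common one throughout the list. The median of the 4 Sox pairs, 219.5 bp, lay above the upper quartile.

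Replicates placed most of the Sox summits at nearly the same positions. Of the 14 summits, 13 overlapped a peak among the 5049 strongest of each replicate by at least 50% of either peak, against 71.2% of all IDR peaks. That share is not matched for rank, and 11 of the 14 Sox summits were among the 2524 strongest IDR peaks. Some of the 14 also share an interval, so their matches are not separate. All 14 were matched in the 3 complete lists of 30000. In those complete lists the closest replicate summit was within 100 bp in all 3 replicates for 13 of them, and the largest offset was 238 bp. With only the 5049 strongest peaks of each replicate, 11 of the 14 had a summit within 100 bp in all 3. Shares over all IDR peaks are not given for the complete lists or for the 100 bp rule. Whether these counts are usual for the IDR list is therefore unknown. The exception in strength was the SoxN summit 82 bp downstream of the TSS, with a signal of 1367 (rank 321). In replicate 1 its closest summit belonged to a peak ranked 29931 of 30000, at 0.62 times the median, while replicates 2 and 3 had 10.03 and 12.1 times. The interval that replicate 1 listed across this promoter was the one ranked 139, with its summit 41 bp upstream of the TSS. The authors derived each replicate's peaks with the same control file, and whether that control shaped the agreement was not tested.

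**Figure D4:**
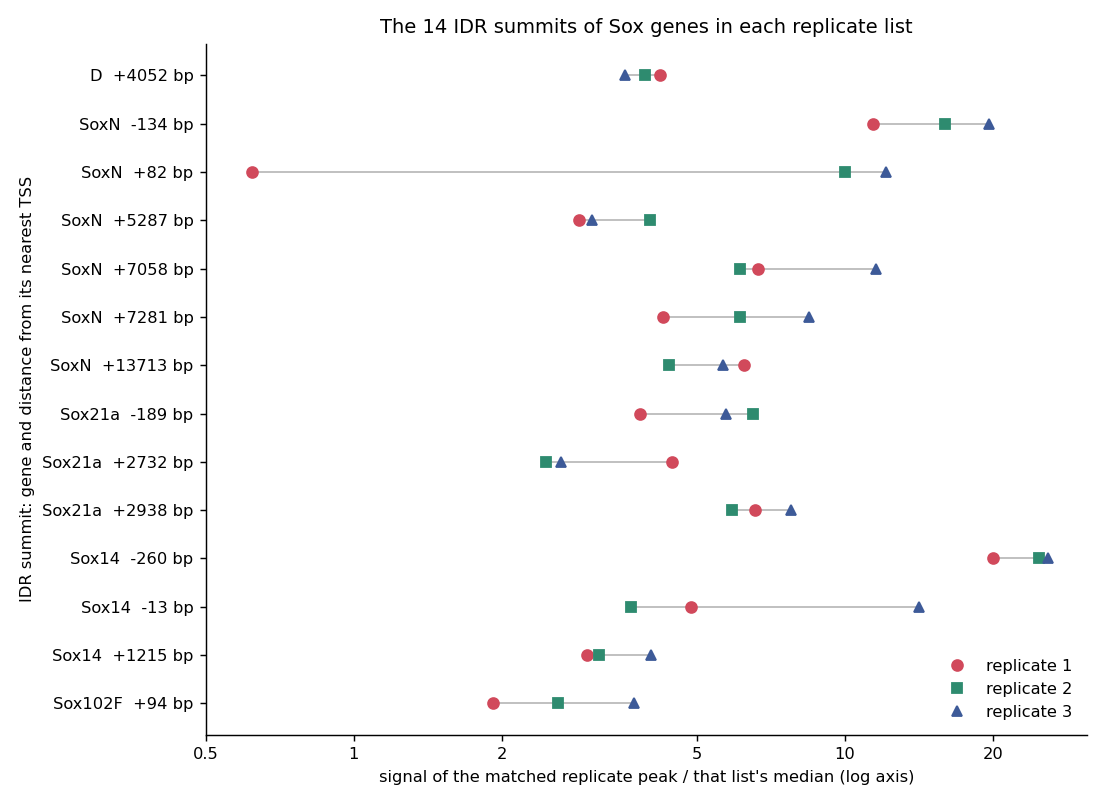
Signal of the replicate peak matched to each of the 14 IDR summits of Sox genes, as a multiple of that replicate list's median on a log axis, with rows named by gene and by the distance of the summit from its nearest TSS (positive is downstream). The summits run from 20.02 to 25.9 at the Sox14 promoter down to 1.92 to 3.72 at Sox102F, and 1 SoxN summit had 0.62 in replicate 1.

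The 14 summits stood high in the IDR list, with a median rank of 933 and 11 of them among its 2524 strongest peaks. By location, 6 lay within 500 bp of a protein-coding TSS, 5 were intergenic and 3 intronic, and none was in a coding exon or UTR outside those promoters. Among all IDR summits 42.6% were in promoters, 15.1% intergenic and 35.1% intronic. The 5 intergenic summits were 4 at SoxN and 1 at D. Each of the 14 had a Sox gene as the owner of its nearest protein-coding TSS.

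Below the IDR list, the Sox windows held 102 further pooled summits, the highest at 2.19 times the pooled median. The weakest Sox summit inside the IDR list, in the Sox21a intron, had a signal of 407, and the strongest outside it, 1461 bp beyond the 3′ end of SoxN, had 286. The median multiple per gene ran from 0.77 at D to 0.99 at Sox21b. Pooled summits of any rank were densest at SoxN, with 8.32 per 10 kb of window, and sparsest at Sox100B, with 2.36. The median protein-coding gene had 2.75. At Sox15 the 3 highest-ranked pooled peaks all lay upstream, nearest to the TSSs of CG8468 or the ribosomal protein gene RpS23, led by one at rank 6269 whose summit was 36 bp from the CG8468 TSS. At Sox100B the top 2 were nearest to dco, a casein kinase gene, at ranks 6969 and 7221. The strongest at Sox21b outside the IDR list lay 2956 bp upstream of its model, at rank 5578, with 1.27, 2.06 and 1.93 times the median in the replicates.

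In sequence, ACAAT on either strand was present in 7 of the 14 Sox windows reaching 100 bp to either side of a summit, against 44.8% of all IDR windows. It occurred at SoxN, Sox14, Sox21a and Sox102F. The longer AACAATG was in 1 Sox window, that of the Sox21a intron, against 5.59% of all IDR windows. GAGAG was in 2, at SoxN (82 bp downstream of the TSS) and the Sox21a promoter, against 35.3%. CAGGTA was in 1, at D, against 13.2%. TAATCC, the core of Bicoid sites, was in 3, at SoxN, Sox21a and D, against 6.34%. TATAAA was in 1 against 16.0%, and TTCNNNGAA, the core of STAT sites, in 1 against 4.79%. The median GC content of the Sox windows was 47.0%, against 45.3% over all IDR windows. The windows are few and some are neighbours in the same or overlapping intervals, so these shares are descriptions only.

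Genes of related function were counted in the same way. Among 14 neural and SoxB-related regulators, 10 had a promoter peak, against 18.4% of protein-coding genes, led by sc (1395), a proneural gene, sim (1325), the midline regulator, and ind (830), a gene of the intermediate neuroectoderm. Among 11 HMG-box genes outside the Sox family, 6 had one, against the same 18.4%, led by the repressor gene cic (2156), HmgZ (1563) and Dsp1 (1464). The 4 of 8 Sox genes included the 2 highest promoter signals of these 33 genes, 3644 at Sox14 and 2460.1 at SoxN. An IDR summit lay in or within 10 kb of 12 of the 14 neural genes and 10 of the 11 HMG-box genes, against 53.9% of protein-coding genes. HmgD and HmgZ, with 13 summits each, share much of their windows. Outside the family, 169 genes whose windows overlap no Sox window had 6 summits like SoxN. Those closest to SoxN in strongest signal were the head gap gene oc (2432), px (2422.5) and the Hox gene Abd-B (2372), at -0.02, -0.02 and -0.05 relative to SoxN on the log2 scale.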

How the data were processed

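Peaks of Mabi-GFP from 3 biological replicates of 1 group were read from 5 lists on dm6, which the labels name as the assembly. Per the notes deposited beside the lists, a replicate's peaks came from that replicate's alignment with a control file that all 3 shared, the pooled peaks from all 3 alignments with that control, and the IDR peaks from these lists. The peak caller and aligner, not given in the sources used here, could change which peaks are listed. The authors deposited a signal value per peak, a −log10 q value and a summit offset. All IDR peaks shared 1 deposited −log10 q value, 4.16, and were identical to the 5049 strongest pooled peaks. Multiples are signal divided by the list's median. Each IDR summit was matched to the closest replicate summit among peaks overlapping by at least 50% of either peak.

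Gene models came from Ensembl release 115, without transposable elements, and sequence from RefSeq. Python 3.11.15, pandas 2.3.3 and SciPy 1.17.1 were used, and the counting was tested on simulated summits. Members and lists were chosen with earlier results of these data known. All members and their IDR summits were named, with up to 3 genes per comparison list and the 3 genes most like SoxN. Alternatives changed distances, overlap, motif window, list and replicates.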

Additional observations from a re-analysis of the deposited data

How the results depend on the processing

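Of 42 values recomputed under alternatives, 37 stayed within 1.5 times the main count, or within the Wilson interval for the motif share. The 14 IDR summits became 5 inside the gene models, 31 within 20 kb and 116 with the complete pooled list, which also gave a promoter peak at 8 genes in place of 4. The share of windows with ACAAT was 21.4% within 50 bp of the summit in place of 50%. A narrower window has fewer places for any motif, and the share of all IDR windows at that width is not given here. The fall therefore cannot be read as particular to the Sox windows. Each replicate was left out in turn by keeping the IDR peaks matched in both others. That left 5 to 6 genes with a summit, 13 to 14 summits and 3 to 4 promoter peaks. It also left 46.2% to 50% with ACAAT and 8 to 8 intronic or intergenic summits. The matched summits, again 13 to 14, equal the summits kept by construction. They are counted among the 37 values that stayed, but check nothing. Sox102F was the gene lost without replicate 2 or 3. No paired analysis was possible because there was 1 group. Read depth is unknown, which limits the precision of every value.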
